A study of Mus musculus with 6 samples.

Results

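The vertebrate PTBP, NOVA, RBFOX and SRRM families hold the splicing regulators best known for setting neuronal exon programs, and 9 of their genes were followed here: *Ptbp1*, *Ptbp2*, *Ptbp3*, *Nova1*, *Nova2*, *Rbfox1*, *Rbfox3*, *Srrm3* and *Srrm4*. They were taken by gene symbol, as families of known splicing regulators and not by a cutoff on their values, from the 59484 features of the deposited table, of which 23505 carry a symbol. All 9 were among the 18970 features whose mean over the 6 libraries reached 10 normalized counts and which were therefore tested. PolyA+ RNA had been sequenced from mouse cortex at embryonic day 18.5 (E18.5) in a 150 bp paired-end format, from 3 C57BL/6 wild-type samples and 3 Sam68:Slm2 ko samples (dKO). The dKO is a constitutive knockout of Sam68 and SLM2, a pair of RNA-binding proteins of the STAR family, and dies around birth. The labels list no treatment for either group, and cells of every type in the dissected tissue contributed RNA. The labels do not say whether the 3 libraries of a genotype came from separate embryos, so the tests measure the spread between libraries.

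PTBP1 is an RNA-binding protein of progenitors and non-neuronal cells that mostly represses neuronal exons. As neurons form, PTBP1 gives way to its paralog PTBP2, while PTBP3 is best known from blood cells. NOVA1 and NOVA2 bind YCAY motifs and control exons of synaptic transcripts, and RBFOX1 and RBFOX3 bind UGCAUG. RBFOX3 is the antigen NeuN, the standard marker of neuronal nuclei. SRRM3 and SRRM4 are serine/arginine-rich proteins that promote the inclusion of neuronal microexons, and SRRM4 is best known for acting on the transcript of REST, a repressor of neuronal genes.

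One sequence feature ties the PTBP paralogs to each other. *Ptbp1* and *Ptbp2* share a cassette exon of 34 bases, a length that is not a multiple of a codon, so that its skipping shifts the reading frame. Skipping of this exon in *Ptbp2* by PTBP1 is the textbook mechanism that keeps PTBP2 low in progenitors. The exons are shown because they are where the levels of the paralogs are coupled, and bases identical in all 3 genes are in capitals (GRCm38, GENCODE release M21, gene strand).
*Ptbp1* exon 10 of 14 in Ptbp1-216, chr10:79862014-79862047, plus strand: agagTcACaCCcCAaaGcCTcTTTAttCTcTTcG
*Ptbp2* exon 10 of 14 in Ptbp2-201, chr3:119724612-119724645, minus strand: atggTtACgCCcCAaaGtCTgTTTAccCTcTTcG
*Ptbp3* exon 11 of 15 in Ptbp3-212, chr4:59485339-59485372, minus strand: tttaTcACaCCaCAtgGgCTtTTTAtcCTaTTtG
The exon is identical at 19 of 34 bases in all 3 genes and at 26 between *Ptbp1* and *Ptbp2*. In *Ptbp1*, 4 annotated transcripts include it and 2 skip it, and both skipping transcripts are annotated as targets of nonsense-mediated decay. In *Ptbp2*, 3 include it and 2 skip it, again both annotated as decay targets, whereas 9 transcripts of *Ptbp3* include it and 0 skip it. The deposited values count whole genes, so the inclusion of this exon was not measured here.

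The longest identical stretch of coding sequence that any pair of these paralogs shares is far shorter than the 150-base reads. These runs are the longest exact matches between the longest annotated coding sequence of each gene. Matches that allow mismatches, and untranslated regions, were not compared.
*Ptbp1* and *Ptbp3*, 20 bases, at chr10:79859829-79859848 on the plus strand and chr4:59493293-59493312 on the minus strand: gacttctccaagctcaccag
*Srrm3* and *Srrm4*, 17 bases, at chr5:135873093-135873109 on the plus strand and chr5:116444845-116444861 on the minus strand: cccatcccctactaccg
*Nova1* and *Nova2*, 15 bases, at chr12:46700416-46700430 on the minus strand and chr7:18926046-18926060 on the plus strand: gcagcagcagcagcc
*Ptbp1* and *Ptbp2*, 14 bases, at chr10:79859862-79859875 on the plus strand and chr3:119740416-119740429 on the minus strand: tacaacaatgataa
*Ptbp2* and *Ptbp3* share 17 bases at most, and so do *Rbfox1* and *Rbfox3*.

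The genes named in the genotype were read first. *Khdrbs1*, the gene of Sam68, gave 8231, 8436 and 7974 normalized counts in wild-type replicates 1 to 3 and 114, 197 and 146 in dKO replicates 1 to 3 (log2 fold change -5.78, adjusted p = 1.08e-07, limma). *Khdrbs3*, which encodes SLM2, had 13543, 15215 and 12764 against 7060, 6350 and 6547 (log2 fold change -1.05, adjusted p = 0.000855, limma). The libraries labelled dKO thus kept a part of its gene-level count, and since the deleted part of the gene was not examined, this value does not check the label. Their paralog *Khdrbs2* had 1212, 1607 and 1300 against 7585, 6499 and 7601 (log2 fold change 2.40, adjusted p = 4.58e-06, limma). Libraries held from 31837922 to 40896541 reads on the listed features, and for the 9 regulators between 319 and 14341 reads per gene and library. Deviations of both libraries numbered 1 from the mean of their genotype correlated positively with exon length. Spearman's rho was 0.287 in wild-type and 0.346 in dKO, over 13978 features of 1 library each, which share depth and base composition. The other 4 libraries lay between -0.239 and -0.0961. Deviations within a genotype cancel out for each feature, so these negative values are not independent of the positive ones. Of the 9 regulators, 8 had their highest wild-type value in wild-type replicate 1 and 6 had their highest dKO value in dKO replicate 1.

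Set side by side per kb of annotated exon, the only scale on which levels of different genes can be compared here, the regulators spanned a wide range in wild-type cortex. *Nova2* was the most abundant, with 1299 ± 207 normalized counts per kb, followed by *Rbfox1* with 972 ± 112 (SD, n = 3). *Rbfox3* (520 ± 57.9), *Ptbp2* (505 ± 22) and *Ptbp1* (446 ± 24.6) formed a middle group. *Srrm4* had 179 ± 20 and *Nova1* 152 ± 8.81 normalized counts per kb. *Srrm3* (87.9 ± 11.7) and *Ptbp3* (52.3 ± 3.43) were the least abundant. In wild-type cortex *Rbfox3* and *Ptbp2* were the only neighbours in this order whose libraries overlapped. In dKO cortex the order was the same except in the middle group, where *Ptbp1* (516 ± 30.3), *Ptbp2* (504 ± 45.1) and *Rbfox3* (495 ± 36.9) each overlapped with the next. The exon lengths are unions over all annotated transcripts, between 4400 bp for *Rbfox1* and 9175 bp for *Ptbp2*, so levels of genes with long rarely used exons are understated.

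**Figure D1:**
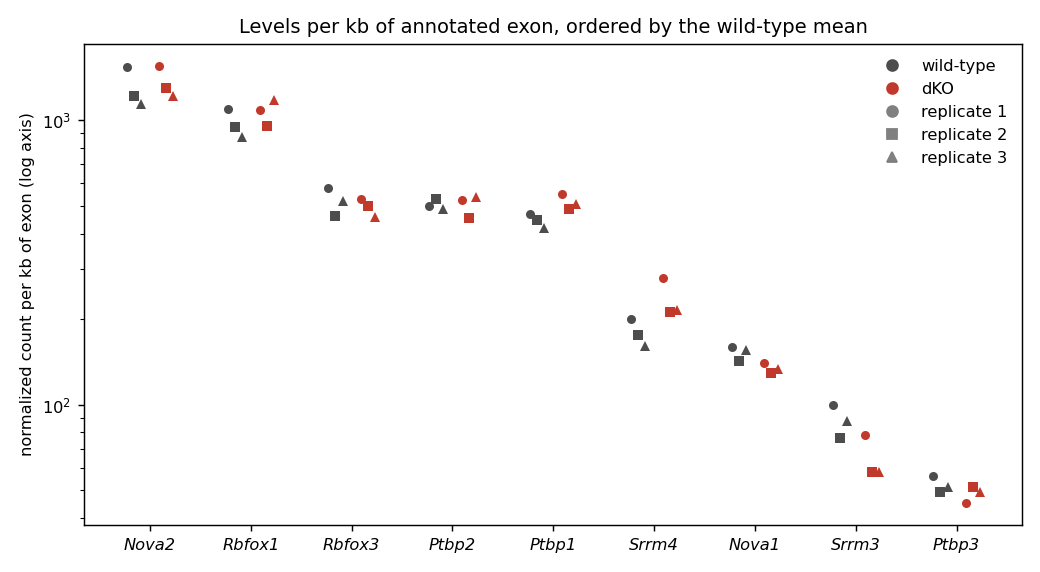
Normalized count per kb of annotated exon (log axis) of each regulator in each library, in the order of the wild-type means; grey points are wild-type and red points dKO, and the marker shape gives the replicate number. *Nova2* and *Rbfox1* lie above the other 7 genes in both genotypes, and *Srrm3* and *Ptbp3* lie lowest.

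The question put to the data was whether the cortex labelled Sam68:Slm2 ko also differed in the abundance of these other splicing regulators. None of the 9 passed an adjusted p of 0.05 in limma, where 0.1% of all features tested did (19 of 18970). At an unadjusted p under 0.05, 3 of 9 passed, *Ptbp1* and *Srrm4* with higher and *Srrm3* with lower values in dKO cortex, beside 11.5% of all features tested (4.92% higher and 6.58% lower in dKO). For 3 of 9, *Ptbp1*, *Nova1* and *Srrm4*, the genotypes did not overlap, beside 16.4% of all features tested. By DESeq2 on the recovered reads 1.09% of features and by edgeR 0.0843% passed an adjusted p of 0.05, and with either tool 0 of the 9 regulators did. The median log2 fold change of the 9 was -0.0058, with 4 above and 5 below 0, and that of all features tested was 0.0036. Single log2 fold changes lay between -0.45 for *Srrm3* and 0.39 for *Srrm4*. Among the 10041 features that average 300 normalized counts or more, as all 9 regulators do, the 5th and 95th percentiles of the log2 fold change were -0.29 and 0.27, and only these *Srrm* paralogs lay outside them. Without both libraries numbered 1, the same 3 regulators had an unadjusted p under 0.05, beside 1776 of all 18966 features tested in that fit. Their log2 fold changes were then 0.20 for *Ptbp1*, -0.50 for *Srrm3* and 0.35 for *Srrm4*, and 0 regulators passed the adjusted threshold in limma.

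**Figure D2:**
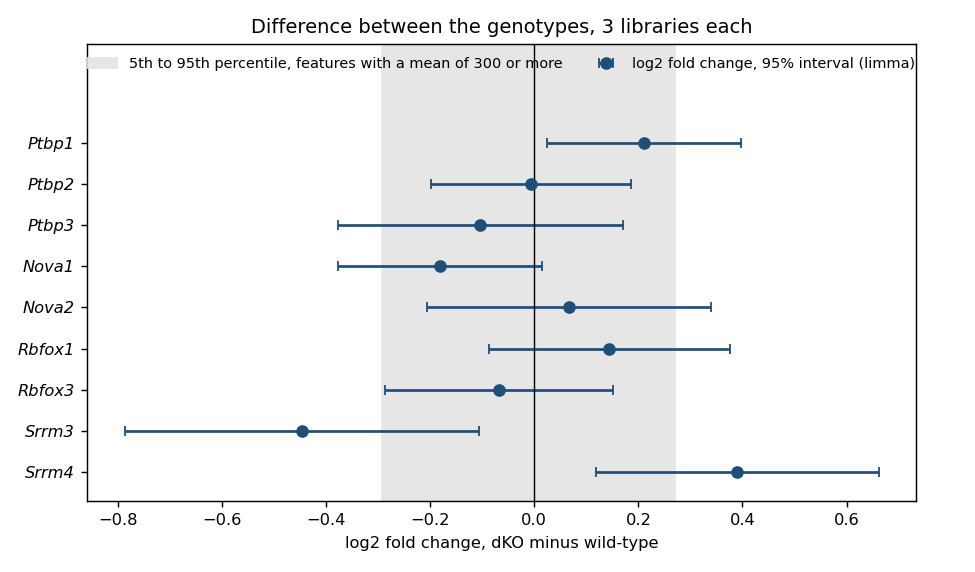
Log2 fold change (dKO minus wild-type) of each regulator on the log2(normalized count + 1) scale, with the 95% interval from limma; the grey band spans the 5th to the 95th percentile of features that average 300 normalized counts or more. The intervals of *Ptbp1*, *Srrm3* and *Srrm4* leave out 0, before adjustment over all features, and the points of *Srrm3* and *Srrm4* lie outside the band on opposite sides.

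The microexon regulators *Srrm3* and *Srrm4* had the largest differences of the set, in opposite directions. *Srrm4* (GSMG0030990, chr5:116439272-116591819, minus strand) had 1740, 1522 and 1397 normalized counts in the wild-type libraries and 2418, 1845 and 1870 in those of the dKO. Every dKO library was above every wild-type library, and dKO replicate 1 was the highest by a wide margin. The means were 1553 ± 174 and 2044 ± 324 (SD, n = 3 each), a ratio of 1.32, and the log2 fold change was 0.39 (standard error 0.12, 95% interval 0.12 to 0.66, adjusted p = 0.336, limma). Leaving out any single library kept the log2 fold change of *Srrm4* between 0.26 and 0.48, and its unadjusted p stayed under 0.05 in 6 of 6 such fits. Its exons overlap those of the antisense gene *Srrm4os* over 68 bp.

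*Srrm3* (GSMG0029909, chr5:135806889-135874772, plus strand) had 637, 488 and 564 normalized counts in the wild-type libraries and 501, 371 and 371 in those of the dKO. The genotypes overlapped through a single pair, dKO replicate 1 lying above wild-type replicate 2. The means were 563 ± 74.8 and 414 ± 74.9 (SD, n = 3 each), the dKO mean being 0.736 of the wild-type mean, and the log2 fold change was -0.45 (standard error 0.15, 95% interval -0.79 to -0.11, adjusted p = 0.36, limma). Its unadjusted p stayed under 0.05 in 3 of 6 fits with a library left out, and was over 0.05 without wild-type replicate 1, dKO replicate 2 or dKO replicate 3, where the log2 fold change was -0.35, -0.38 and -0.37.

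A ratio of paralogs within a library does not depend on how that library was scaled, and it separated the genotypes more clearly than either gene did. *Srrm3* per *Srrm4* count was 0.366, 0.32 and 0.403 in wild-type replicates 1 to 3 and 0.207, 0.201 and 0.199 in dKO replicates 1 to 3. The dKO values were close to each other and all well below the lowest wild-type value. The mean log2 ratio was -1.47 ± 0.17 in wild-type and -2.31 ± 0.03 in dKO cortex, so the dKO ratio was 0.559 of the wild-type ratio. The exact two-sided permutation test gave p = 0.1, the smallest value that 3 against 3 libraries allow, and p = 0.2 after Benjamini-Hochberg adjustment over the 4 ratios examined. The libraries numbered 1, which were high for both genes, gave ratios near those of the other libraries of their genotype. Without both of them the difference in log2 ratio was -0.85, beside -0.84 with all libraries and, without any single library, between -0.93 and -0.76.

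**Figure D3:**
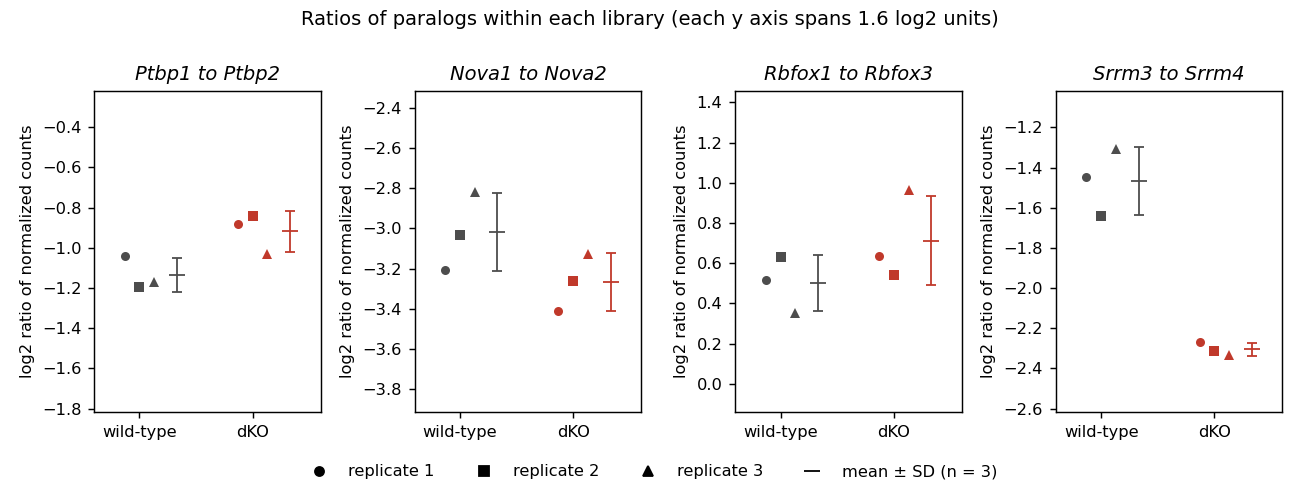
Log2 ratio of the normalized counts of paralogs in each library, with the mean and SD of each genotype (n = 3); every y axis spans the same width, and grey is wild-type and red dKO. The genotype means of *Srrm3* to *Srrm4* lie 0.84 log2 units apart, with a clear gap between the libraries. Those of *Ptbp1* to *Ptbp2* lie 0.22 apart, but the nearest libraries of the genotypes almost touch. The genotypes overlap for *Nova1* to *Nova2* and *Rbfox1* to *Rbfox3*.

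Among the PTBP genes, *Ptbp1* was slightly higher in dKO cortex and its paralogs were not separated from wild-type. *Ptbp1* (GSMG0003235, chr10:79854432-79864434, plus strand) had 2223, 2122 and 1990 normalized counts in the wild-type libraries and 2603, 2322 and 2410 in those of the dKO. All dKO libraries exceeded all wild-type libraries, by a margin of the same order as the spread within a genotype. The means were 2112 ± 117 and 2445 ± 144 (SD, n = 3 each), a ratio of 1.16, and the log2 fold change was 0.21 (standard error 0.08, 95% interval 0.02 to 0.40, adjusted p = 0.395, limma). The unadjusted p of *Ptbp1* was over 0.05 in 4 of 6 fits with a library left out (without wild-type replicate 2 or 3, or dKO replicate 1 or 3), reaching 0.119 without wild-type replicate 3 in limma, where the adjusted p was 0.757. It was also over 0.05 with quantile normalization (0.0598) and in limma without the trend and robust options (0.0678). The exons of *Ptbp1* overlap those of 3 genes on the opposite strand by up to 437 bp, *Gm17134* most of all, and the strand setting of the counting is not given in the sources used here, so reads of these genes cannot be told apart.

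*Ptbp2* (GSMG0025983, chr3:119718546-119783389, minus strand), the neuronal paralog, had 4568, 4865 and 4479 normalized counts in the wild-type libraries and 4803, 4156 and 4927 in those of the dKO. The dKO libraries held both the highest and the lowest value. The means of 4637 ± 202 and 4628 ± 414 differed by a log2 fold change of -0.0058 (95% interval -0.20 to 0.19, adjusted p = 0.984, limma), and a difference as large as that of *Srrm4* lies outside this interval. The sign of this difference depended on wild-type replicate 2 and dKO replicate 2, without which it was 0.03 and 0.07. *Ptbp3* (GSMG0027863, chr4:59471868-59549364, minus strand) had 419, 369 and 384 against 338, 384 and 370 normalized counts, with overlapping genotypes, the log2 fold change being -0.10 (95% interval -0.38 to 0.17, adjusted p = 0.764, limma). It was the gene of the set with the fewest reads, and 207 bp of its exons overlap a pseudogene on the opposite strand. Without the libraries numbered 1 its log2 fold change was 0.00058.

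*Ptbp1* per *Ptbp2* count was 0.487, 0.436 and 0.444 in wild-type and 0.542, 0.559 and 0.489 in dKO libraries. The lowest dKO ratio barely exceeded the highest wild-type ratio. The dKO ratio was 1.16 times that of wild-type cortex (difference in log2 ratio 0.22, exact two-sided permutation p = 0.1, adjusted over the 4 ratios 0.2), and without the libraries numbered 1 the difference in log2 ratio was 0.25.

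The NOVA genes were unequal in level and in how they compared between genotypes. *Nova1* (GSMG0008839, chr12:46694517-46818775, minus strand) had 1393, 1246 and 1359 normalized counts in the wild-type libraries and 1222, 1130 and 1170 in those of the dKO. The highest dKO library was just below the lowest wild-type library. The means were 1333 ± 77.1 and 1174 ± 46.1 (SD, n = 3 each), a ratio of 0.881, and the log2 fold change was -0.18 (standard error 0.09, 95% interval -0.38 to 0.01, adjusted p = 0.467, limma). *Nova2* (GSMG0051066, chr7:18925343-18965319, plus strand), the main NOVA gene of the cortex, had 12850, 10202 and 9586 against 13015, 10851 and 10218 normalized counts. Both libraries numbered 1 were far above the others of their genotype and the genotypes overlapped throughout. Its log2 fold change was 0.07 (95% interval -0.21 to 0.34, adjusted p = 0.853, limma), and its sign turned with quantile normalization (-0.01), without wild-type replicate 3 (-0.02) and without dKO replicate 1 (-0.04). The exons of *Nova2* overlap those of *Gm26821* on the opposite strand over 2652 bp, so reads of this RNA cannot be told apart. *Nova1* overlaps *Gm33869* on its own strand over 310 bp of exon, whose reads cannot be told apart under any strand setting. *Nova1* per *Nova2* count was 0.108, 0.122 and 0.142 in wild-type and 0.0939, 0.104 and 0.115 in dKO libraries, with overlap (difference in log2 ratio -0.25, exact two-sided permutation p = 0.2, adjusted over the 4 ratios 0.2). The difference in log2 ratio was -0.15 without wild-type replicate 3.

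Neither *Rbfox1* nor *Rbfox3* separated the genotypes. *Rbfox1* (GSMG0014618, chr16:5884793-7412480, plus strand), whose product controls exons of ion channel and synaptic transcripts, had 4815, 4163 and 3853 normalized counts in the wild-type libraries and 4783, 4214 and 5174 in those of the dKO. Its highest value was in dKO replicate 3 and its lowest in wild-type replicate 3. The log2 fold change was 0.14 (95% interval -0.09 to 0.38, adjusted p = 0.608, limma), and it was 0.07 without wild-type replicate 3, 0.08 without dKO replicate 3 and 0.23 without wild-type replicate 1. With quantile normalization it was 0.085. *Rbfox3* (GSMG0007703, chr11:118489760-118911597, minus strand) had 3364, 2691 and 3018 against 3083, 2899 and 2655 normalized counts. The neuronal marker thus had its highest value in a wild-type and its lowest in a dKO library, with overlap and a log2 fold change of -0.07 (95% interval -0.29 to 0.15, adjusted p = 0.813, limma) that was 0.01 without wild-type replicate 1. *Rbfox1* per *Rbfox3* count was 1.43, 1.55 and 1.28 in wild-type and 1.55, 1.45 and 1.95 in dKO libraries, with overlap (difference in log2 ratio 0.21, exact two-sided permutation p = 0.2, adjusted over the 4 ratios 0.2). The difference in log2 ratio was 0.09 without dKO replicate 3 and 0.14 without wild-type replicate 3.

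**Figure D4:**
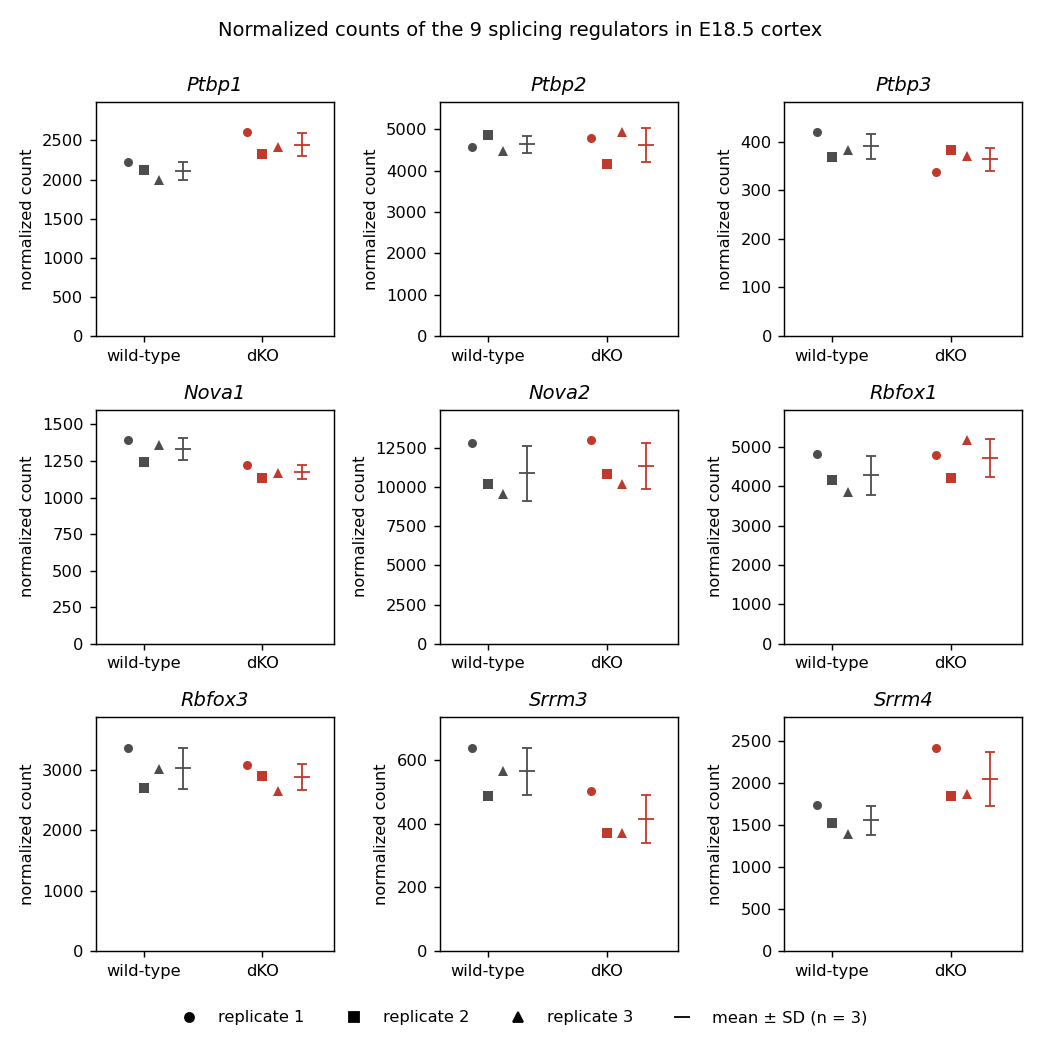
Normalized counts of the 9 regulators in each library, with y axes from 0; points are libraries, marker shapes give the replicate number, and bars are the mean ± SD of each genotype (n = 3). The genotypes do not overlap for *Ptbp1*, *Nova1* and *Srrm4*, overlap by a single pair of libraries for *Srrm3*, and overlap for the other 5 genes.

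Genes that work with these regulators, or downstream of them, differed little. Of 24 such genes in 4 lists, 23 were tested and *Raver1* was not analysed here. None passed an adjusted p of 0.05 in limma, 2 had an unadjusted p under 0.05, both higher in dKO cortex (beside 4.92% of all features tested), and for 4 the genotypes did not overlap, a share near the 16.4% of all features tested. Their median log2 fold change was 0.07, with 19 above 0 and 4 below, and the range was -0.08 to 0.25. Over all features tested, 9603 were above 0 and 9367 below. The 4 related genes below 0 all belonged to the list of neuronal genes. With quantile normalization, 1 of the 2 genes under the unadjusted threshold, *Srsf11*, stayed under it, and with edgeR or DESeq2 0 of the 23 passed the adjusted one.

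Of the PTBP cofactors, RNA-binding proteins that act with PTBP1 on repressed exons, 4 of 5 were tested and 0 passed either threshold. Their log2 fold changes lay between 0.00 for *Raver2*, whose sign turned to -0.02 with both count tools, and 0.11 for *Hnrnpll*, with a median of 0.10. The list of neuronal genes, with *Vamp2*, *Sv2a*, *Kif5a*, *Dlg4* and *Gabbr1* among them, holds synaptic and transport proteins and includes transcripts that PTBP1 holds down in cells without neuronal identity. Of its 6 members, 0 passed either threshold, 2 were above 0 and 4 below, and their log2 fold changes ran from -0.08 for *Gabbr1*, a subunit of the GABA-B receptor, to 0.01 for *Kif5a*, a kinesin heavy chain, which was -0.03 with quantile normalization. Their median was -0.03.

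LASR is the large assembly of splicing regulators in which RBFOX proteins are found. Its 8 listed partners had log2 fold changes between 0.01 for *Hnrnpul2*, which was -0.07 with quantile normalization, and 0.21 for *Ilf2*, with a median of 0.09. *Ilf2* encodes an RNA-binding protein and averaged 5238 ± 119 normalized counts in wild-type cortex against 6062 ± 200 (log2 fold change 0.21, standard error 0.07, adjusted p = 0.36, limma). It was 1 of 8 with an unadjusted p under 0.05, a share near the 11.5% of all features tested. SRRM partners and the REST axis comprised 6 genes with log2 fold changes between 0.03 for *Rest* and 0.25 for *Srsf11*, with a median of 0.12. *Srsf11* encodes an SR protein that acts with SRRM4 at the upstream enhancers of microexons, and averaged 7429 ± 403 normalized counts in wild-type cortex against 8831 ± 504 (log2 fold change 0.25, standard error 0.08, adjusted p = 0.34, limma). It was 1 of 6 with an unadjusted p under 0.05, beside 11.5% of all features tested. *Rest*, the transcript on which SRRM4 acts by splicing, differed by 0.03 at the level of the whole gene, and its sign turned without wild-type replicate 2 (-0.03).

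**Figure D5:**
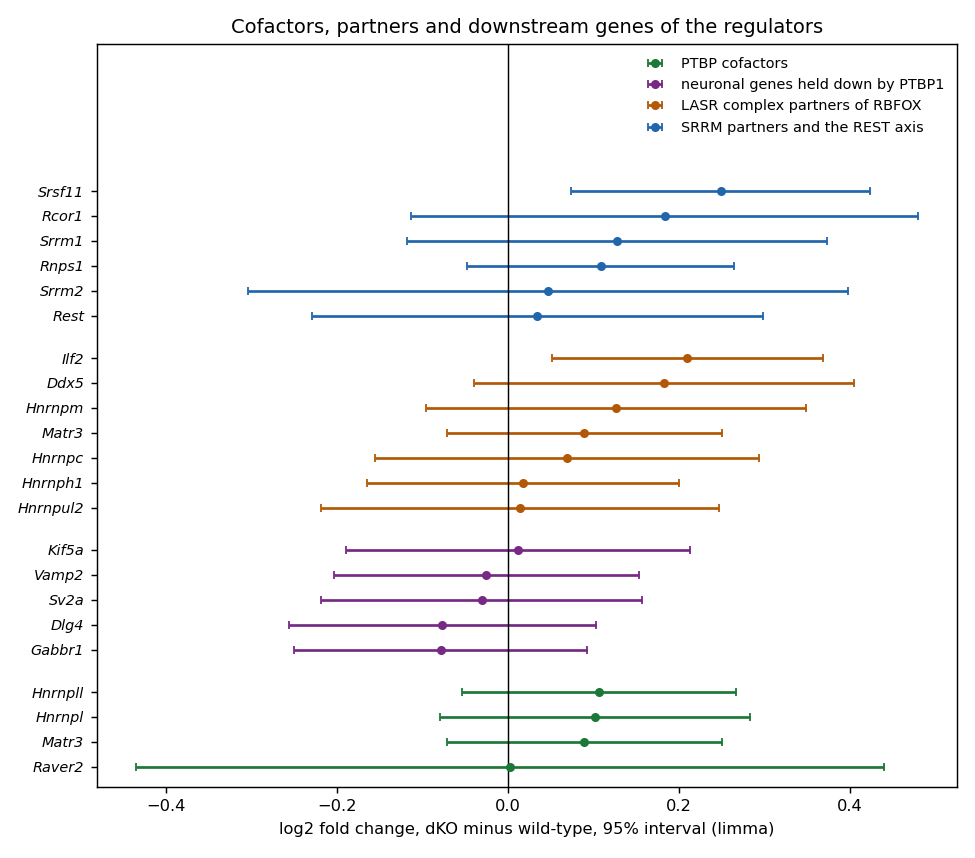
Log2 fold change (dKO minus wild-type) of 21 of the 23 related genes tested, with 95% intervals from limma, coloured by list; *Matr3* belongs to 2 lists and is drawn in both. The intervals of *Srsf11* and *Ilf2* lie above 0 before adjustment over all features, and those of the other genes drawn include 0.

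Since these are bulk libraries, more cells of a type and more RNA per cell cannot be told apart. The 6 dorsal cortex markers were present in every library, and their sums overlapped between the genotypes. Most of each dorsal cortex sum came from 1 abundant marker, so the overlap is largely that of this gene. At an unadjusted p under 0.05, 2 of 6 were higher in dKO cortex (beside 4.92% of all features tested). Their median log2 fold change was 0.24. The 4 choroid plexus markers summed to 26.3 normalized counts or less in any library and were too low to be tested. None of the marker genes tested passed an adjusted p of 0.05 in limma. *Ptbp1*, a gene of progenitors, was higher in dKO cortex at the unadjusted threshold only. The 5 markers of proliferating cells summed to between 4573 and 4915 normalized counts in wild-type libraries and between 5386 and 6583 in dKO libraries. Of these markers, 2 of 5 were higher at an unadjusted p under 0.05 (beside 4.92% of all features tested). Radial glia, by their 7 markers, summed to 40209 to 50827 against 41650 to 50672 and overlapped. At an unadjusted p under 0.05, 2 of 7 were higher (beside 4.92% of all features tested). These markers did not move as one either, their log2 fold changes running from -0.51 to 0.28. Beside the *Srrm* genes and the other neuronal regulators, the 6 neuronal markers summed to between 242020 and 259865 in wild-type and between 266859 and 280792 in dKO libraries, a difference of 0.13 on the log2 scale. The neuronal markers did not move as one. At an unadjusted p under 0.05, 3 of 6 were higher and 1 of 6 lower in dKO cortex. Over all features tested the shares higher and lower were 4.92% and 6.58%. Most of each neuronal sum came from 1 abundant marker, and the median log2 fold change of the 6 was 0.08. Oligodendrocyte lineage markers summed to between 6770 and 11735 in wild-type and between 3736 and 6346 in dKO libraries, with 3 of 4 lower at an unadjusted p under 0.05 (beside 6.58% of all features tested). Interneuron, endothelial, microglial and erythroid sums overlapped between the genotypes, though 2 of 4 endothelial markers were lower at an unadjusted p under 0.05 (beside 6.58%), and 2 of 4 erythroid markers were not analysed here. The part of cell composition in the values of the 9 regulators was not tested.

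One regulator of each family was compared with every other symbol that averaged 100 normalized counts or more, by the root mean square difference of their centred log2 levels over the 6 libraries. Nearest to *Ptbp1* were *Ccnt1*, which encodes cyclin T1 (0.0238), the ephrin receptor gene *Ephb1* (0.0277) and *Ctu1*, which encodes a tRNA thiolation enzyme (0.0284). Nearest to *Nova2* were *Taf1*, a subunit gene of the general transcription factor TFIID (0.0323), *Polr1a*, which encodes the largest subunit of RNA polymerase I (0.0332), and *Irs2*, an adaptor of insulin signalling (0.0352). *Rbfox3* was closest to *Gnao1*, which encodes a G protein alpha subunit abundant in neurons (0.0237), and *Gnptab* of lysosomal enzyme sorting was also among its nearest (0.0321). *Srrm4* had the most distant neighbours of these, *Fsd1l* (0.0613), *Gltscr1* (0.0633) and *Anln*, which encodes the cytokinesis protein anillin (0.0684). The centred levels of *Srrm4* itself also varied the most, with a root mean square of 0.25 against 0.117 to 0.169 for the other regulators compared. The distances were not scaled by this spread. With 6 libraries and 11637 symbols compared, such likeness is a description of these libraries.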

How the data were processed

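The authors aligned 150 bp paired-end reads of stranded polyA+ libraries and deposited, for each gene of the FAST database, a signal, its read count after division by the size factor of each library. Per the labels' processing notes, STAR 2.7.5a, SAMtools, Picard, FastQC and DESeq2 were used with build mm10. The counting program and its strand setting are not given in the sources used here. In each library 100% of positive values were whole multiples of the value of 1 read (tolerance 0.01), so reads were recovered for the count tools. The members and gene lists were chosen with earlier results of these data known. Genotypes were taken from the labels and compared on the scale log2(normalized count + 1) with limma 3.58.1 under R 4.3.3 (trend and robust), for features averaging 10 or more, with Benjamini-Hochberg adjustment over all of them. A fold change on this scale understates differences of low genes. Ratios were compared by exact permutation tests over libraries. Python 3.11.15 with numpy 2.4.6, pandas 2.3.3 and scipy 1.17.1 was used for the rest, and the fit was tested on simulated data. There limma called 81 of 100 changes of 1 log2 unit and 96 of 100 changes of 2, with 18 false calls. Changes as small as those of the 9 regulators were not simulated, so the power to call them is not known. Exon lengths and sequences came from GENCODE release M21 on GRCm38, the same build as mm10. Genes named beyond the 9 regulators were the targeted genes and *Khdrbs2*, list genes with an unadjusted p under 0.05 or at either end of their list, and the 3 nearest profiles of 4 regulators. Values of a few single genes were left out. Splicing, imaging and RT-PCR data were not analysed here.

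Alternatives were pseudocounts of 0.1 and 10, minimum means of 1 and 50 and no minimum, quantile normalization, TMM rescaling, limma without trend and robust, the quasi-likelihood test of edgeR 4.0.16, DESeq2 1.42.0 (both on recovered reads), a replicate block and each library left out. Features with a symbol only, and both libraries numbered 1 left out, were chosen after seeing the data.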

Additional observations from a re-analysis of the deposited data

How the results depend on the processing

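No regulator and no related gene passed an adjusted p of 0.05 under any alternative, and the lowest adjusted p of *Srrm4* and *Srrm3* were 0.137 and 0.164, with highest values of 0.695 and 0.774 (limma, edgeR or DESeq2). At an unadjusted p under 0.05 the counts were 3 regulators and 2 related genes, beside 2181 of all 18970 features tested. Leaving out each library, these counts ranged from 1 to 3 for both, and were 1 each without dKO replicate 3. Calls over all features moved too, from 1230 of 19010 without dKO replicate 3 to 2712 of 18966 without wild-type replicate 2. Quantile normalization left 1 related gene, and among the regulators *Ptbp1* was then over the unadjusted threshold and *Nova1* under it (limma p of 0.0598 and 0.0483). *Ptbp1*, *Nova1*, *Rbfox1*, *Srrm3* and *Srrm4* and all 4 paralog ratios kept their direction under the alternatives run. Log2 fold changes with each of the libraries left out crossed 0 for *Ptbp2* (-0.053 to 0.070), *Nova2* (-0.035 to 0.19), *Rbfox3* (-0.15 to 0.012), *Raver2* (-0.19 to 0.14), *Kif5a* (-0.054 to 0.069), *Hnrnpul2* (-0.072 to 0.11) and *Rest* (-0.032 to 0.070). Directions also turned with quantile normalization for *Nova2* (-0.012), *Kif5a* (-0.034) and *Hnrnpul2* (-0.075), with edgeR and DESeq2 for *Raver2* (-0.016 and -0.022), and without replicate 1 of both genotypes for *Ptbp3* (0.00058). The cause was not tested. *Khdrbs3* kept a log2 fold change of -1.05 but had an adjusted p of 0.0891 in limma without the trend and robust options, against 0.0094 or less under the other alternatives.

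Over all features, the count past an adjusted p of 0.05 was 19 in limma, 207 with DESeq2, 16 with edgeR, 9 with the replicate block and 7 in limma without the trend and robust options. The main tests did not pair libraries by number. Deviations of same-numbered libraries correlated at 0.098, -0.228 and -0.079, and 2 of 6 libraries correlated best with their own number. Both libraries numbered 1 nonetheless deviated with exon length in the same direction, and a batch behind the numbers was not tested. Blocking by replicate number in limma gave 3 regulators an unadjusted p under 0.05, beside 2307 of all 18970 features tested. With the replicate block 0 regulators and 0 related genes passed the adjusted threshold, *Srrm4* and *Srrm3* having adjusted p of 0.211 and 0.284 in limma, and for the ratio of *Srrm3* to *Srrm4* the exact sign-flip test gave p = 0.25, the smallest that 3 pairs allow.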

Other observations

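The spans of the 9 regulators hold 45 further features of the table, 26 of them within *Rbfox1*. Of these, 4 unnamed features reached a mean of 10 normalized counts, and 0 had an unadjusted p under 0.05 in limma. The feature within *Ptbp2*, at chr3:119726290-119728895, had 76.1, 53.7 and 37.7 normalized counts in wild-type and 32.7, 54.4 and 18.6 in dKO libraries, with overlap and a log2 fold change of -0.72 (adjusted p = 0.524, limma). The feature within *Srrm3* had a log2 fold change of -0.16, and both within *Srrm4* had -0.50 and 0.14, the second of these with the sign of the host gene. Reads of such features cannot be told apart from unspliced RNA of the host gene.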
